A study of Mus musculus with 9 samples.

Results

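The comparison described here set 8-cell mouse embryos that had been injected as zygotes with siRNA against *Mfn1* (MFN1-KD) against 8-cell embryos injected with a nontargeting siRNA (control). It used 6 of the 9 libraries of the series, 3 in each group, and the members were chosen by the group named in the sample titles. The 3 libraries of the third group, which received siRNA against *H3f3a* and *H3f3b* (H3.3-KD), entered only through the spread between replicates that all groups shared. Per the study's methods the embryos came from ICR mice, an outbred stock, by in vitro fertilization, and all groups were injected and cultured to the same stage without any targeted allele. Each library was made from a pool, for which the labels give 5 to 10 embryos per group, and since they do not say whether the 3 pools of a group were separate collections, p-values measure only the spread between these pools. Of the 55335 entries listed in each library, 12218 averaged 1 FPKM or more in the 6 libraries and were tested, of which 9408 are annotated as protein coding. FPKM is the number of fragments per kilobase of transcript, scaled to the fragments of the library, so that levels can be set side by side between genes.

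MFN1 is a GTPase of the outer mitochondrial membrane which, together with its relative MFN2, tethers neighbouring mitochondria and drives the fusion of their outer membranes. OPA1 then fuses the inner membranes, and the dynamin relative DRP1 (encoded by *Dnm1l*), recruited by receptors such as FIS1 and MFF, divides mitochondria. Mitochondria of the cleaving mouse embryo are inherited from the egg and are small and rounded, and around the 8-cell stage the embryo compacts, polarizes and relies increasingly on transcripts from its own genome in place of those stored in the egg.

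*Mfn1* itself (ENSMUSG00000027668.13, chromosome 3 from 32529465 to 32579239 of GRCm38) was measured at 51.6, 22.6 and 23.8 FPKM in control replicates 1 to 3, and at 9.54, 4.40 and 1.15 FPKM in MFN1-KD replicates 1 to 3. Every MFN1-KD library lay below every control library, and control replicate 1 was more than 2-fold above the other controls. The mean in MFN1-KD was 15.4% of that in control, with 5.03 ± 4.23 against 32.6 ± 16.4 FPKM (SD, n = 3 each, p = 0.10 in a two-sided exact permutation test, which is the minimum for 3 libraries against 3). On the scale of log2(FPKM + 1), used for all differences given here, it fell by 2.66 (standard error 0.58, adjusted p = 0.0398 from limma). Over the 18 alternative fits described at the end the adjusted p lay between 0.024 and 0.141, and it was above 0.05 in 11 of them. The size of the remaining signal therefore differed among the 3 knockdown pools, from 1.15 to 9.54 FPKM.

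The MFN1-KD libraries were more variable than the others. The median standard deviation of a gene between replicates was 0.54 in MFN1-KD and 0.30 in control on the log2 scale. MFN1-KD replicate 3 stood apart, with 15577 genes above 0 FPKM, against 19250 and 20842 in the other MFN1-KD libraries and 21643 to 22507 in control, and with 54.2% of its FPKM in its 100 highest genes, against 44.2% to 49.5% in the other 5 libraries. Read counts were not used here, and only the relative depth could be estimated, from the commonest ratio between low values of short genes. By that estimate 1 fragment was worth 1.31 times as much in MFN1-KD replicate 3 as in control replicate 1, over 140 genes, against 1.03 and 1.17 in the other MFN1-KD libraries and 1.13 and 1.05 in control replicates 2 and 3, where a larger value means fewer fragments. The part of depth in the results was not tested. All 7 markers of the 8-cell embryo reached 1 FPKM in at least 1 library, but they did not move together. *Dppa3*, which encodes a maternally stored factor that protects methylated DNA of the early embryo, was among the highest genes in every library, at 10642 to 13913 FPKM in control and 16697 to 20351 FPKM in MFN1-KD. *Tfap2c* was also higher in every MFN1-KD library, *Pou5f1* and *Padi6* were lower in every one, and *Ooep*, *Zp3* and *Cdh1* overlapped. In MFN1-KD replicate 3 *Pou5f1*, *Padi6* and *Ooep* were at only 0.30, 0.33 and 0.03 FPKM. Of 10 markers of cumulus and granulosa cells, the cells that surround the egg, 4 (*Amh*, *Fshr*, *Has2* and *Ptx3*) were listed at 0 in all 6 libraries and their sum of 16.3 to 30.4 FPKM in control and 11.4 to 20.2 FPKM in MFN1-KD was almost wholly *Amhr2*. The 7 sperm markers summed to 1.68 to 2.93 FPKM in control and to 0.78 FPKM or less in MFN1-KD. The 5 blood markers summed to 78.8 to 97.8 FPKM in control and 18.6 to 77.9 FPKM in MFN1-KD, most of it *Hba-a1*. In a wider blood and immune list 7 genes were tested. Of these 4 were downregulated at the study threshold given below (57.1%, against 9.49% of all genes). The median log2 fold change of the 7 was -1.77 relative to all genes, the furthest of any list, and -1.65 without MFN1-KD replicate 3. They summed to 93.9, 226 and 218 FPKM in control replicates 1 to 3. In MFN1-KD the sums were 45.2, 93.4 and 24.0 FPKM. *S100a8*, a gene of neutrophils, was listed at 0 in control replicate 1 and in all 3 MFN1-KD libraries and at 45.6 and 42.9 FPKM in control replicates 2 and 3. *S100a9*, its partner, was listed at 0 in the same 4 libraries and at 34.6 and 30.8 FPKM in control replicates 2 and 3. The part of other cells in the results was not tested, and in such pools fewer cells of a type and less RNA per cell cannot be told apart.

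At the threshold used in the study, a change of more than 2-fold with unadjusted p under 0.05, 662 genes (5.42% of the genes tested) were upregulated and 1160 (9.49%) were downregulated in MFN1-KD, and the words rose and fell are used here for these calls. At an adjusted p under 0.05 in limma, 154 genes (1.26%) were higher and 298 (2.44%) lower. All 3 MFN1-KD libraries lay above all 3 control libraries for 1472 genes (12%), and below them for 2036 (16.7%). The adjusted calls rest on the spread shared by 9 libraries. When only the 6 libraries were fitted, 625 genes rose and 1044 fell, but the adjusted p was under 0.05 for 1 higher gene, the olfactory receptor *Olfr995*, and 2 lower genes, *Gm23840* and *Gm44297*, both annotated as miRNA genes, although 2610 genes had an unadjusted p under 0.05. No adjusted call was left without control replicate 2 or without control replicate 3, although 1950 and 1935 genes were under 0.05 before adjustment. When MFN1-KD replicate 3 was left out, 657 genes rose and 719 fell, and without MFN1-KD replicate 2, 740 rose and 1780 fell. Over all genes the median log2 fold change was -0.08, and medians of gene lists are given relative to it.

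Among protein-coding genes that passed the adjusted threshold, averaged 10 FPKM or more and had groups that did not overlap, the largest rise was in *Slc13a4* (chromosome 6 from 35267957 to 35308131), which encodes a sodium-coupled sulfate transporter. It was at 2.80, 1.48 and 2.88 FPKM in control and at 23.8, 7.93 and 45.3 FPKM in MFN1-KD, so that it rose by 2.71 on the log2 scale (standard error 0.57, limma adjusted p = 0.0351). All 3 MFN1-KD libraries were above all controls, but they differed among themselves by more than 5-fold. The rise with the smallest standard error of the 12 was that of *Unc13d* (chromosome 11 from 116062095 to 116077961), which encodes a priming factor for secretory vesicles. Its level was 22.3, 19.8 and 27.3 FPKM in control and 97.5, 68.2 and 150 FPKM in MFN1-KD, a rise of 2.08 ± 0.31 on the log2 scale (SE, adjusted p = 0.0239). *Naf1* (chromosome 8 from 66860217 to 66890564), needed for the assembly of box H/ACA ribonucleoproteins such as telomerase, went from 19.4, 11.2 and 5.24 FPKM in control to 41.2, 64.5 and 62.6 FPKM in MFN1-KD (log2 fold change 2.27, standard error 0.42, adjusted p = 0.0301). The control libraries of *Naf1* were spread more widely than those of the knockdown.

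Several of the other large rises are in genes with known roles in the cytoskeleton, in transcription or in protein turnover. *Actn2*, an actin cross-linker known from muscle, was at 3.44, 4.27 and 6.84 FPKM in control and 18.5, 50.7 and 19.5 FPKM in MFN1-KD, and *Fhl3*, a LIM-domain protein that binds actin and transcription factors, at 8.21, 2.35 and 4.23 FPKM in control and 34.7, 21.2 and 19.3 FPKM in MFN1-KD. Their log2 fold changes were 2.27 and 2.21. *Crebzf*, a bZIP transcription factor, rose by 2.25, *Slfn5*, of the Schlafen family, by 2.18, and the bile acid and steroid transporter subunit *Slc51a* by 2.22. Both *Ubqln2*, which carries ubiquitylated proteins to the proteasome, and *Fbxo33*, the substrate adaptor of a ubiquitin ligase, rose, by 2.34 and 2.16. *Fbxo33* was the most abundant of these 12 genes in MFN1-KD, at 158, 210 and 416 FPKM against 85.7, 43.2 and 39.9 FPKM in control. The remaining members were *A530064D06Rik* (2.48) and *Teddm1b* (1.97). In GENCODE *Slc51a*, *Slfn5* and *Teddm1b* each overlap 1 other gene on the opposite or the same strand, and since the Smart-Seq2 libraries, as described, do not mark the strand, reads of such pairs cannot be told apart.

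Among the 12 largest falls by the same criteria, the first was listed for *Gm49383*, whose span on chromosome 12 overlaps 4 annotated genes, among them *Rpl36al* and *Mgat2*, so its level of 29.4, 26.3 and 24.6 FPKM in control and 2.67, 4.49 and 0.16 FPKM in MFN1-KD cannot be given to 1 gene. *Aurkc* (chromosome 7 from 6995300 to 7003091) overlaps none. It encodes the aurora kinase of the chromosomal passenger complex that acts in meiosis and in the early embryo. It was at 85.7, 107 and 87.1 FPKM in control and at 14.4, 18.5 and 5.43 FPKM in MFN1-KD, with no overlap and a difference of -2.92 ± 0.45 on the log2 scale (SE, limma adjusted p = 0.0256). *Yif1b* (chromosome 7 from 29238329 to 29247597), a protein of traffic between endoplasmic reticulum and Golgi, went from 85.8, 88.5 and 74.3 FPKM to 13.6, 23.3 and 5.30 FPKM (log2 fold change -2.68, standard error 0.41, adjusted p = 0.0256). MFN1-KD replicate 3 was the lowest library in all 12 of these falls, *Mfn1* included, and without it their log2 fold changes lay between -2.63 and -1.66.

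*Psmg3*, an assembly chaperone of the proteasome core, fell from 149, 141 and 161 FPKM in control to 51.9, 26.4 and 9.56 FPKM in MFN1-KD, and *Mrps11*, a protein of the small subunit of the mitochondrial ribosome, from 50.4, 47.9 and 56.8 FPKM to 11.6, 20.9 and 2.49 FPKM. Their log2 fold changes were -2.61 and -2.41. Both overlap a neighbouring gene, which for *Mrps11* is *Mrpl46*. The log2 fold change was -2.88 for *Stard3nl*, which ties late endosomes to the endoplasmic reticulum, -3.10 for the tetraspanin *Tspan31*, -2.47 for *Plaur*, the urokinase receptor, -2.46 for *Mpdu1*, needed for the use of dolichol-linked mannose in glycosylation, and -2.37 for *Tdpoz5*, of a BTB-domain family expressed in early embryos. *Tdpoz5* belongs to a family of near-identical copies and *Tspan31* overlaps *Cdk4*, so reads could be shared in both cases, and *Yif1b*, *Stard3nl* and *Mpdu1* also overlap 1 gene each. With only the 6 libraries fitted, the adjusted p of these 24 genes lay between 0.061 and 0.0933. The histone gene *Hist1h4i* fell from 30.4, 26.5 and 34.3 FPKM to 2.13, 11.1 and 1.94 FPKM (log2 fold change -2.70).

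**Figure D1:**
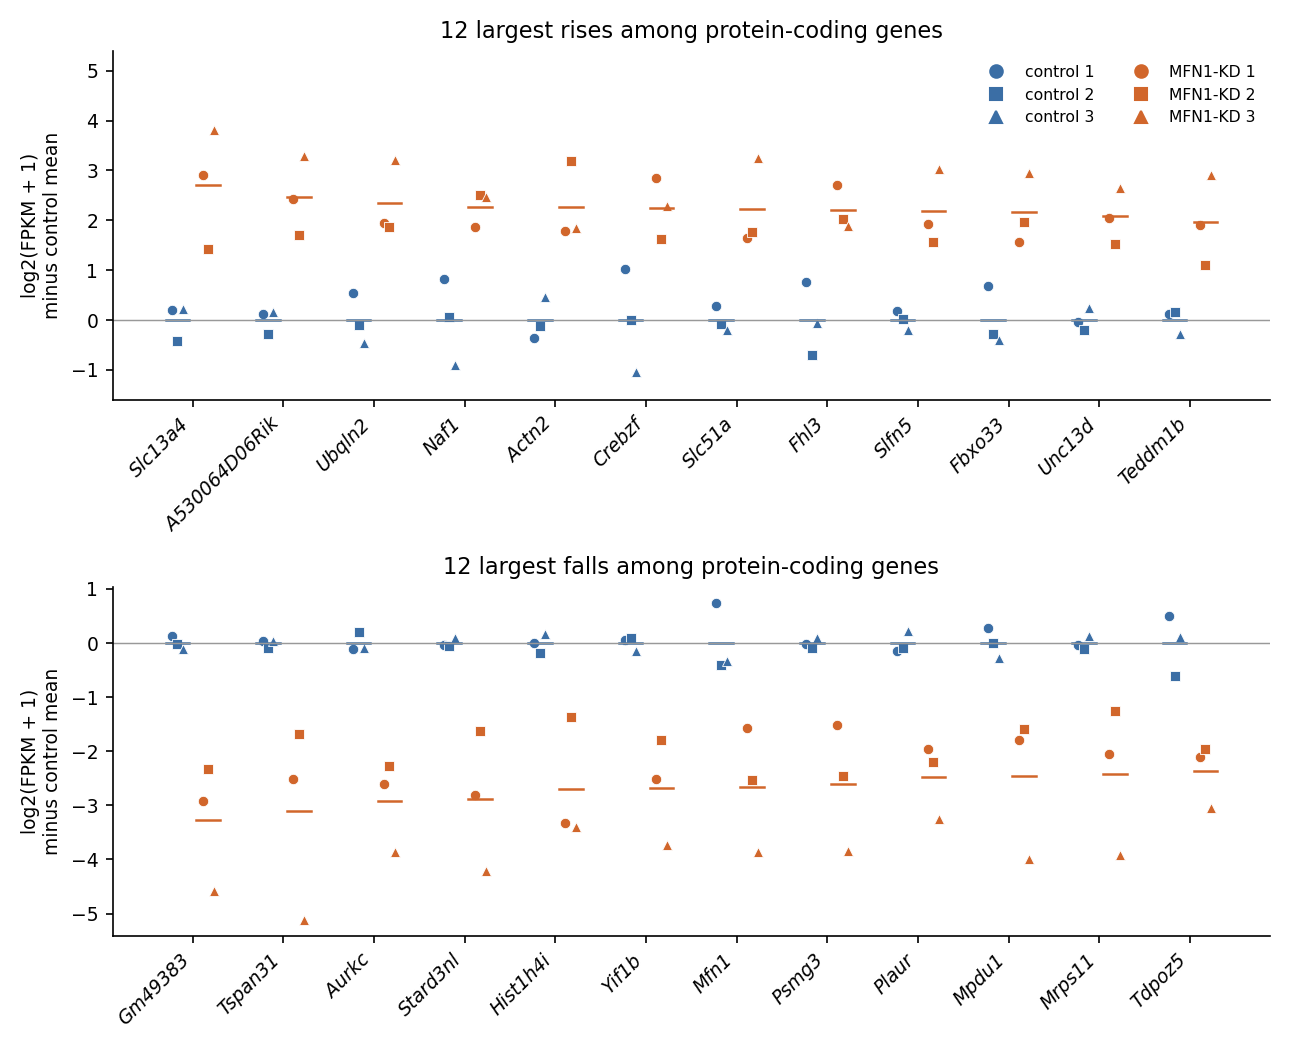
Level of the 12 protein-coding genes with the largest rises (top) and the 12 with the largest falls (bottom) in each library, as log2(FPKM + 1) minus the mean of the 3 control libraries. Points are single libraries, with the shape giving the replicate, and short lines are group means; in every gene shown the 3 MFN1-KD libraries lie on one side of the 3 control libraries, as the choice of genes requires, and in every fall MFN1-KD replicate 3 is the lowest.

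Among 22 expressed genes of mitochondrial fusion, fission and inner membrane shape none rose, and the median was -0.34 relative to all genes. *Mfn1* and 4 others fell (22.7% with the target included, against 9.49% of all genes). These 4 were *Stoml2*, *Phb*, *Micos13* and *Fis1*. *Stoml2*, which encodes a stomatin relative of the inner membrane that takes part in stress-induced fusion, was at 137, 116 and 102 FPKM in control and at 43.1, 49.7 and 6.89 FPKM in MFN1-KD (log2 fold change -2.19, standard error 0.59, adjusted p = 0.0671 from limma). *Phb*, the prohibitin that forms ring complexes in the inner membrane, was at 79.5, 71.6 and 80.1 FPKM in control and at 28.0, 50.8 and 5.92 FPKM in MFN1-KD (-1.84, adjusted p = 0.0997). In both genes the groups did not overlap, and the lowest library was MFN1-KD replicate 3.

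*Fis1*, chosen for description after its values were seen, was at 73.0, 78.6 and 77.5 FPKM in control and at 32.3, 39.5 and 1.74 FPKM in MFN1-KD (log2 fold change -2.32, adjusted p = 0.142), and *Micos13*, a subunit of the cristae-organizing MICOS complex, at 188, 194 and 239 FPKM in control and 158, 114 and 38.4 FPKM in MFN1-KD (-1.20, adjusted p = 0.132). These too did not overlap. The other mitofusin, *Mfn2*, was at 4.33, 3.66 and 3.41 FPKM in control and at 1.70, 3.38 and 1.66 FPKM in MFN1-KD (log2 fold change -0.60, adjusted p = 0.282), a level far under that of *Mfn1* in control. Its groups did not overlap, but the difference was under 2-fold. *Opa1* was at 4.98, 2.21 and 3.84 FPKM against 3.56, 2.93 and 5.95 FPKM, with overlap and a log2 fold change of 0.14 (standard error 0.42). *Dnm1l* was higher in every MFN1-KD library, at 17.7, 19.3 and 16.4 FPKM against 13, 9.93 and 9.55 FPKM, but by less than 2-fold (log2 fold change 0.68, adjusted p = 0.153). Without MFN1-KD replicate 3, 4 of the 22 genes fell.

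**Figure D2:**
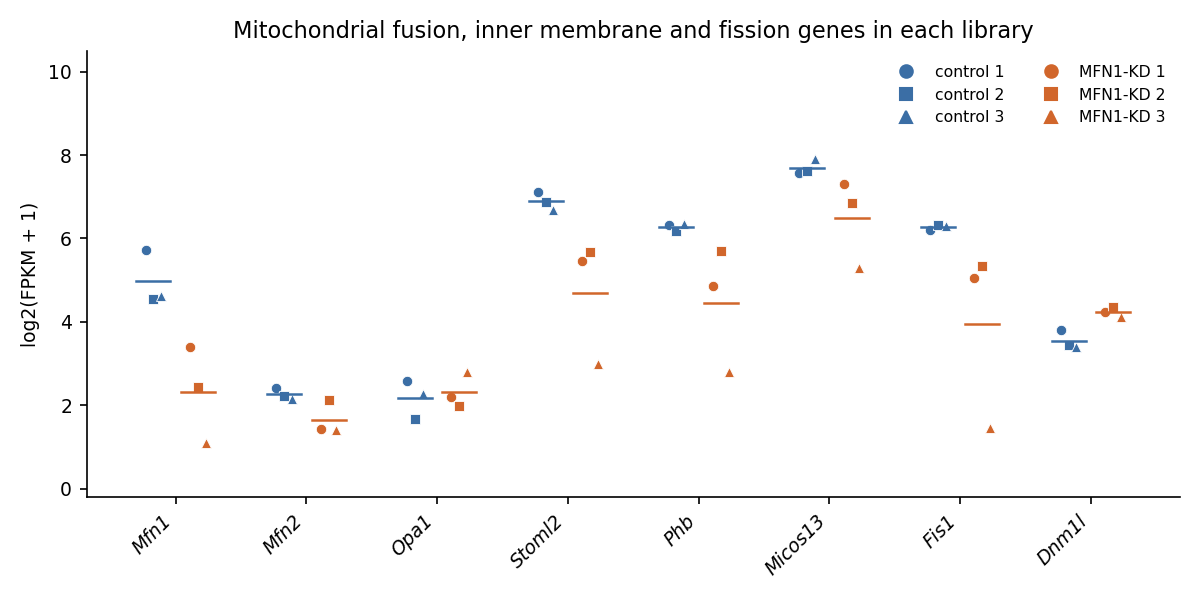
Levels of 8 genes of mitochondrial fusion (*Mfn1*, *Mfn2*, *Opa1*), inner membrane organization (*Stoml2*, *Phb*, *Micos13*) and fission (*Fis1*, *Dnm1l*) in each library, as log2(FPKM + 1). Points are single libraries, with the shape giving the replicate, and lines are group means; *Mfn1*, *Mfn2*, *Stoml2*, *Phb*, *Micos13* and *Fis1* are lower in all 3 MFN1-KD libraries, *Dnm1l* is higher in all 3, and *Opa1* overlaps.

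Several lists of nuclear genes for mitochondrial proteins were lower as groups, the mitochondrial ribosomal proteins most of all, whereas ATP synthase, complex I and the maintenance of mitochondrial DNA lay closer to all genes and mitochondrially encoded mRNAs did not move together. Of 78 mitochondrial ribosomal proteins 17 fell and none rose, and the median was -0.49 relative to all genes. In 36 of the 78 the MFN1-KD libraries lay below all controls without overlap, which held for 16.7% of all genes. Of 45 genes of protein import and mitochondrial chaperones 6 fell (13.3%, against 9.49% of all genes) and none rose (median -0.35). Without MFN1-KD replicate 3, 4 of the 45 fell and the median was -0.17, and it was -0.20 with the trends over GC content and length removed. Of 25 mitochondrial translation factors and tRNA synthetases 4 fell (16.0%) and 1 rose (median -0.44). Of 55 genes of complexes II, III and IV 10 fell and none rose (-0.27), whereas of 50 genes of complex I 5 fell and 1 rose (-0.13) and of 18 genes of ATP synthase 1, *Atp5d*, fell (-0.12). Per gene tested, 9.49% fell in the whole data set, so that the share among mitochondrial ribosomal proteins (21.8%) lay above it, the share in complex I (10.0%) was near it and the share in ATP synthase (5.56%) lay under it. The median of ATP synthase was 0.03 without MFN1-KD replicate 3, and that of complex I was -0.03 with the trends over GC content and length removed. The count for mitochondrial ribosomal proteins was 11 without MFN1-KD replicate 3, and also 11 with these trends removed from every library, with medians of -0.36 and -0.32.

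*Mrpl12*, a protein of the large subunit that also binds mitochondrial RNA polymerase, was at 155, 208 and 178 FPKM in control and at 85.1, 87.1 and 60.8 FPKM in MFN1-KD (log2 fold change -1.21, standard error 0.22, adjusted p = 0.0301 from limma). *Mrps12* was at 64.9, 71.3 and 76.9 FPKM against 29.8, 34.0 and 16.3 FPKM (-1.44, adjusted p = 0.0351). The synthetase *Sars2*, which charges mitochondrial serine tRNA, was at 6.93, 7.18 and 6.34 FPKM in control and at 0.86, 2.05 and 0.50 FPKM in MFN1-KD (-1.94, adjusted p = 0.0301). In these 3 genes no MFN1-KD library reached the lowest control. *Tsfm*, the mitochondrial elongation factor Ts, fell by 1.19 and *Nars2* rose by 1.21. *Fars2*, the mitochondrial synthetase for phenylalanine, was counted in the list of cytosolic synthetases and rose by 1.39, so that 2 mitochondrial synthetases rose in all.

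Import and quality control genes that fell include *Tomm40*, the channel of the outer membrane, *Timm44*, which couples the inner membrane channel to its motor, *Mtx1*, of the sorting and assembly machinery, and *Clpp*, the protease of the matrix. *Mtx1* was at 73.4, 104 and 96.9 FPKM in control and at 30.1, 41.2 and 21.6 FPKM in MFN1-KD (log2 fold change -1.57, standard error 0.28, adjusted p = 0.0301 from limma), and *Clpp* at 146, 150 and 129 FPKM against 44.8, 76.5 and 29.6 FPKM (-1.58, adjusted p = 0.0435). *Tomm40* and *Timm44* fell by 1.26 and 1.13. In the respiratory chain *Coa4*, an assembly factor of complex IV, *Sdhd*, a membrane anchor of complex II, and *Uqcc1*, an assembly factor of complex III, fell, with log2 fold changes of -2.15, -2.02 and -1.89. *Taco1*, which activates translation of the complex IV subunit COX1, was at 3.04, 4.57 and 2.18 FPKM in control and was listed at 0, 0.15 and 0 FPKM in MFN1-KD.

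Complex I showed both directions. *Ndufs4*, an accessory subunit, was at 53, 70.7 and 77.0 FPKM in control and at 22.4, 31.2 and 16.8 FPKM in MFN1-KD (log2 fold change -1.50, standard error 0.33, adjusted p = 0.0387 from limma), and *Ecsit*, which is needed for its assembly, fell by 1.66. *Ndufaf2*, another assembly factor, rose from 14.4, 29.0 and 24.1 FPKM to 57.5, 79.4 and 42.4 FPKM (log2 fold change 1.38, standard error 0.32, adjusted p = 0.0453). The 13 mRNAs encoded by mitochondrial DNA made up 9.97% to 10.6% of all FPKM in control and 10.0%, 9.07% and 14.4% in MFN1-KD replicates 1 to 3 (two-sided exact permutation test, p = 0.90). Of these 13 only *mt-Nd4l* passed the threshold, from 530, 915 and 891 FPKM to 390, 718 and 177 FPKM (log2 fold change -1.04), with overlap between the groups. *mt-Nd1* was at 13500, 13209 and 12967 FPKM against 12966, 11124 and 11415 FPKM, and the log2 fold changes of the other 11 lay between -0.75 and 0.65. The median of the 13 relative to all genes was 0.09, and -0.16 without MFN1-KD replicate 3. None of 22 genes for the maintenance and transcription of mitochondrial DNA passed the threshold, and their median was -0.09.

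The median of the glycolysis genes was higher, though not in every library, while other metabolic lists shifted less. Of 14 glycolysis genes 11 lay above 0, and their median was 0.65 relative to all genes, with a range of 0.34 to 0.78 over the 18 alternatives. Only *Pfkp* (log2 fold change 1.02), an isoform of phosphofructokinase, rose (7.14%, against 5.42% of all genes), and without MFN1-KD replicate 3 none rose and 1 fell, with a median of 0.36. Relative to the control mean of each gene, the list median was 0.07, 0.54 and 0.72 in MFN1-KD replicates 1 to 3. In control replicates 1 to 3 it was 0.31, -0.04 and -0.24, so that the groups overlapped. In the list of pyruvate, lactate and citric acid cycle enzymes 1 of 32 fell (3.12%, against 9.49% of all genes, median -0.09 relative to all genes). This was *Ogdh* (log2 fold change -1.29, adjusted p = 0.0383 from limma), a subunit of the 2-oxoglutarate dehydrogenase complex, at 25.6, 17.4 and 16.2 FPKM in control and 8.77, 7.04 and 6.38 FPKM in MFN1-KD. Of 34 genes of amino acid and one-carbon metabolism 2 rose and 2 fell (5.88% each, against 5.42% and 9.49% of all genes, median -0.23). *Phgdh*, which makes serine from a glycolytic intermediate, fell from 42.2, 23.9 and 22.4 FPKM to 7.99, 10.9 and 9.32 FPKM (-1.50, adjusted p = 0.0323). Among 38 genes of mitophagy and autophagy 3 fell (7.89%) and 1 rose (2.63%), both under the shares of all genes, with a median of -0.15. Those that fell were *Atg4b*, *Atg101* and *Map1lc3a* (-1.84, -1.37 and -1.44), and *Atg9a*, the membrane scramblase of early autophagosomes, rose by 1.25.

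The promoters of these groups were compared in one respect. The letters CCGGAAG hold the core that is bound by ETS-family factors, of which GABPA is known for nuclear genes of mitochondrial proteins. They were searched on both strands of windows that RefSeq gives for GRCm38.p6, from 250 bases before to 50 bases after the start of transcription. They were found in 9.12% of 27025 windows and in 21.1% of the 7630 windows of protein-coding genes tested (of 9408), in 36.2% of 69 windows of mitochondrial ribosomal proteins (of 78 genes) and in 42.2% of 45 windows of complexes II, III and IV (of 55). Within mitochondrial ribosomal proteins the median log2 fold change was -0.57 with these letters and -0.50 without, within complexes II, III and IV it was -0.77 with them and 0.07 without, and within the proteasome list it was -0.48 with them and -0.73 without, so that the order was not the same in each list. Among 44 windows of the MAP kinase genes described further on, 9.09% held them, as did 8.33% of 24 windows of polycomb genes and 25% of 32 windows of the CCR4-NOT list, so that these 3 lists, in each of which more genes rose than fell, lay on either side of the share among all protein-coding genes tested. The 29 genes of the lists of fusion and fission, mitochondrial ribosomal proteins and proteasome that fell included 6 with these letters wholly before the start. The 21.1% of all protein-coding genes tested is a share of windows and also counts letters after the start, so 6 of 29 cannot be set against it. *Mfn1* is 1 of these, but it is the target of the siRNA, and no link between the letters and any fall was tested. The stretches are shown in the direction of transcription, with the letters or their reverse complement in capitals.
Mfn1, chr3:32529408-32529474, plus strand: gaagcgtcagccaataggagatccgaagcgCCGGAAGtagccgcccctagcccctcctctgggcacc
Stoml2, chr4:43031453-43031519, minus strand: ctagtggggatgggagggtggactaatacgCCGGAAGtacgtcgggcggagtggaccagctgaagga
Fis1, chr5:136953227-136953274, plus strand: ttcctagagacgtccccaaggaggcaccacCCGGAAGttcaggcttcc
Mrpl17, chr7:105811288-105811337, minus strand: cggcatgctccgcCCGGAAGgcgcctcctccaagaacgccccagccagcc
Mrps18a, chr17:46110948-46111003, plus strand: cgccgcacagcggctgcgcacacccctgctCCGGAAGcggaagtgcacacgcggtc
Mrpl52, chr14:54426832-54426898, plus strand: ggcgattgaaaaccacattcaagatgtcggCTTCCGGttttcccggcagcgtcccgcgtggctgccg
The match of letters is a description of the sequence, and binding was not measured here.

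Proteasome genes were lower, and cytoplasmic ribosomal proteins were not. Of 46 proteasome subunits and assembly chaperones 7 fell (15.2%, against 9.49% of all genes) and none rose, with a median of -0.50 relative to all genes. In 23 of them all MFN1-KD libraries lay below all controls, which held for 16.7% of all genes. *Psmb4*, a subunit of the core, was at 759, 884 and 770 FPKM in control and at 351, 452 and 228 FPKM in MFN1-KD (log2 fold change -1.28, standard error 0.25, adjusted p = 0.0323 from limma). *Psmc4*, an ATPase of the regulatory base, was at 189, 202 and 180 FPKM against 81.7, 93.8 and 48.9 FPKM (-1.39, adjusted p = 0.0389), and *Psmc5*, another ATPase of the base, fell by 1.07. *Psme4*, an alternative activator, lay furthest the other way, at 33.4, 18.4 and 17.9 FPKM against 33.7, 39.1 and 56.5 FPKM (0.89, adjusted p = 0.150). Without MFN1-KD replicate 3, 4 proteasome genes fell.

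Of 86 cytoplasmic ribosomal proteins 2 fell, *Rpl13* (log2 fold change -1.04, adjusted p = 0.0414 from limma) and *Rpl7l1* (-1.33), with a median of -0.07 relative to all genes. *Rpl7* was at 2166, 2641 and 2783 FPKM in control and 2553, 2446 and 1733 FPKM in MFN1-KD, with overlap (-0.19, adjusted p = 0.581), and *Rpl3* at 720, 719 and 706 FPKM against 534, 527 and 497 FPKM, without overlap (-0.46, adjusted p = 0.186). Reads of ribosomal protein genes can be shared with their many processed copies. Among 64 translation initiation and elongation factors 5 fell (7.81%, against 9.49% of all genes) and 1 rose. *Eif5a*, which helps the ribosome through difficult sequences and ends, was at 986, 1116 and 1026 FPKM in control and at 327, 296 and 93.9 FPKM in MFN1-KD (-2.31, standard error 0.39, adjusted p = 0.0301). *Dohh*, the enzyme that completes the hypusine residue of this factor, also fell, from 12.2, 13.2 and 12.5 FPKM to 4.11, 5.70 and 2.16 FPKM (-1.51, adjusted p = 0.0348). *Gspt1*, the release factor eRF3a, rose from 224, 149 and 114 FPKM to 363, 364 and 347 FPKM (1.19, adjusted p = 0.0435).

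Chaperones went both ways, with 7 of 43 cytosolic heat shock proteins and chaperonins upregulated (16.3%) and 5 downregulated (11.6%), against 5.42% and 9.49% of all genes. *Hspa1b*, an inducible HSP70 gene, was at 0.71, 0.48 and 0.33 FPKM in control and at 2.61, 7.93 and 30.2 FPKM in MFN1-KD (log2 fold change 2.74, standard error 0.68, adjusted p = 0.0523 from limma). The 3 MFN1-KD libraries differed by more than 10-fold in this gene. Of the near-identical pair of HSP70 genes only this one is described, and reads could be split between them. *Hspa2* rose from 2.86, 2.60 and 4.23 FPKM to 9.75, 11.2 and 14.3 FPKM (1.59, adjusted p = 0.0351). *Stub1*, a ubiquitin ligase that acts on clients of HSP70, fell from 28.7, 28.2 and 29.3 FPKM to 12, 5.55 and 1.74 FPKM (-2.27, adjusted p = 0.0347), and *Cdc37*, which brings kinases to HSP90, fell by 1.85. In the endoplasmic reticulum *Sec13*, of the COPII coat, and *Ssr2*, of the translocon, fell by 2.07 and 1.57, while *Sec63* rose by 1.03. The integrated stress response had 2 rises in 21 genes (9.52%, against 5.42% of all genes), *Ddit4* (1.14) and *Nupr1* (1.13), and 1 fall (4.76%, against 9.49%).

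In the signalling lists more genes rose than fell, though not under every alternative. Among 54 members of MAP kinase cascades 12 (22.2%) rose and 1 fell, against 5.42% and 9.49% of all genes, and the median was 0.41 relative to all genes. *Spry2*, a feedback inhibitor of the pathway, was at 85.3, 60.9 and 115 FPKM in control and at 144, 179 and 234 FPKM in MFN1-KD (log2 fold change 1.10, adjusted p = 0.0764 from limma), and *Map4k3* rose by 1.29. The 1 member that fell was the transcription factor *Myc*, at 14.3, 11.5 and 18.0 FPKM in control and 2.41, 4.98 and 6.55 FPKM in MFN1-KD (-1.52, adjusted p = 0.0705). None of these 3 genes had overlapping groups. MAP kinase transcripts were long, with a median of 1562 bases against 1009 for all genes tested, and with the trend over GC content and length removed 4 rose and 2 fell, while the median was again 0.41. Without MFN1-KD replicate 3, 7 rose and 2 fell.

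In the PI3K, AKT and FoxO list 5 of 39 rose (12.8%, against 5.42% of all genes) and 3 fell (7.69%, against 9.49%), but with the trends over GC content and length removed 3 rose and 4 fell. The catalytic subunit *Pik3cb* was at 10.9, 8.01 and 7.24 FPKM in control and at 30, 24.9 and 28.8 FPKM in MFN1-KD (log2 fold change 1.59, adjusted p = 0.0279 from limma). *Mtor* was at 3.98, 5.94 and 4.05 FPKM against 2.22, 0.93 and 1.36 FPKM (-1.19, adjusted p = 0.0705), and the AMPK subunit *Prkag1* fell by 1.83. In the Wnt list 4 of 32 rose (12.5%, against 5.42% of all genes) and none fell, and 2 rose with these trends removed. Among the 4 was *Ctnnb1*, which encodes the beta-catenin of junctions and Wnt signalling, at 145, 95.1 and 76.8 FPKM in control and 188, 225 and 314 FPKM in MFN1-KD (1.21, adjusted p = 0.0541). In the Hippo list 3 of 24 rose (12.5%) and 1 fell (4.17%). *Amot*, which holds YAP at the membrane, was at 5.52, 3.23 and 2.58 FPKM against 11.6, 12.9 and 11.4 FPKM (1.49, adjusted p = 0.0662), and *Tead1* rose by 1.37. Of the YAP and TEAD target genes in the list, *Ccn1* fell by 1.21 and *Ccn2* rose by 1.08.

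**Figure D3:**
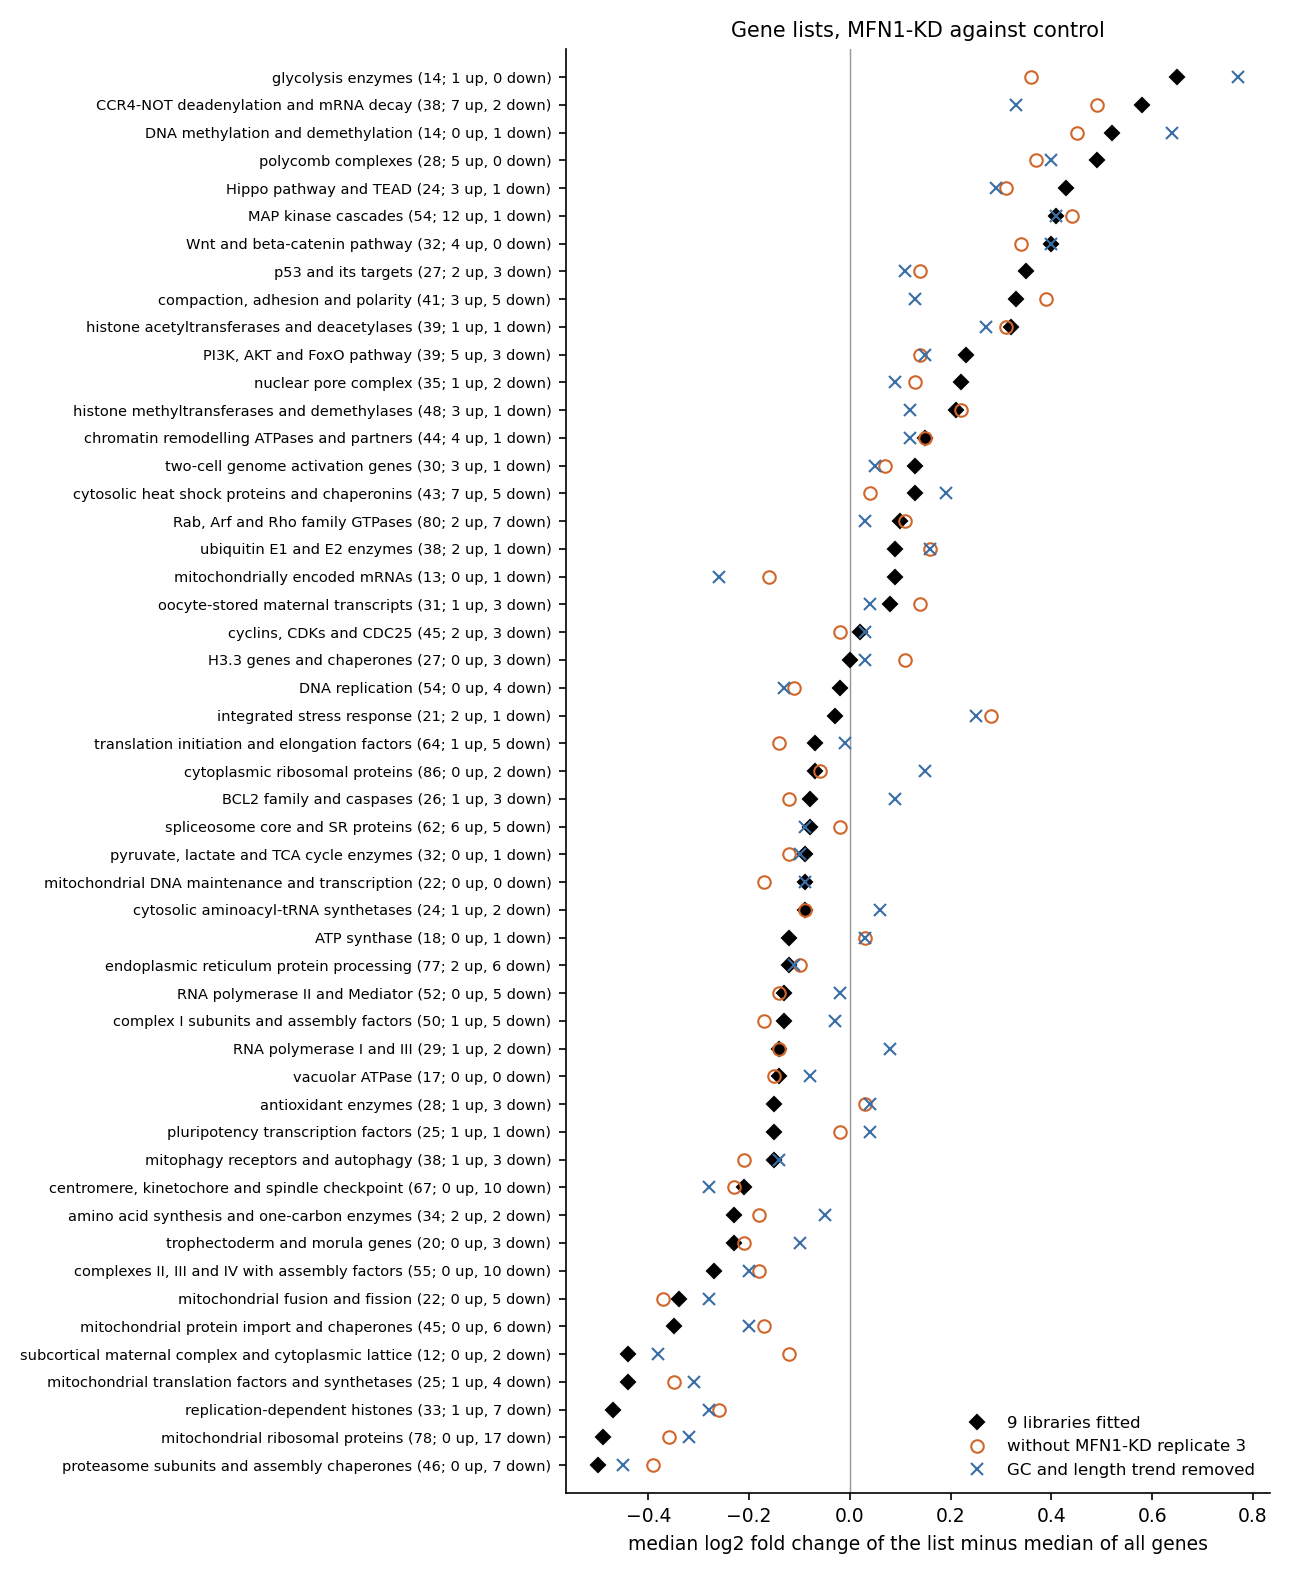
Median log2 fold change of each gene list with at least 12 tested members, minus the median of all genes, with the number of members tested, upregulated and downregulated in parentheses. Black diamonds give the fit over 9 libraries, open circles the fit without MFN1-KD replicate 3 and crosses the fit after removal of the trends over GC content and transcript length; proteasome (-0.50) and mitochondrial ribosomal proteins (-0.49) lie lowest, and glycolysis (0.65) and the CCR4-NOT list (0.58) highest.

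Among genes of chromatin, the 2 genes for H3.3 changed by less than 2-fold. *H3f3a* was at 1594, 2092 and 2110 FPKM in control and at 1349, 1371 and 1288 FPKM in MFN1-KD (log2 fold change -0.52, standard error 0.20, adjusted p = 0.148 from limma), and *H3f3b* at 2903, 2895 and 3166 FPKM against 2831, 2836 and 2695 FPKM (-0.10, adjusted p = 0.805). For both genes all 3 MFN1-KD libraries lay below all controls. Of 27 H3.3 genes and chaperones 3 fell (11.1%, near the 9.49% of all genes). They were *Asf1b* (-1.06), a chaperone that hands H3 and H4 to assembly factors, *Npm2* (-1.05), the egg nucleoplasmin, and *Chaf1a* (-1.11), of the CAF-1 assembly complex. *Nasp*, which stores free H3 and H4, was higher, at 464 to 662 FPKM in MFN1-KD against 275 to 367 FPKM in control (0.94, adjusted p = 0.0421).

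Of 33 replication-dependent histone genes 7 fell (21.2%, against 9.49% of all genes) and 1 rose. The median was -0.47 relative to all genes, and -0.26 without MFN1-KD replicate 3, where 3 fell and 3 rose. Most mRNAs of this kind lack a poly(A) tail, and the libraries were primed with oligo-dT, so that their values cover a part of these transcripts, and copies are near-identical. Besides *Hist1h4i*, *Hist1h1a* was at 6.25, 10.1 and 6.87 FPKM in control and at 1.49, 2.15 and 0 FPKM in MFN1-KD (log2 fold change -2.11, adjusted p = 0.0351 from limma). *Hist2h2bb* went from 0.93, 5.91 and 2.36 FPKM to 28.0, 10.9 and 6.48 FPKM (1.95, adjusted p = 0.0688). Among 9 other histone variants *Cenpa*, the H3 variant of centromeres, fell from 203, 207 and 228 FPKM to 74.7, 149 and 86.8 FPKM (-1.09, adjusted p = 0.0693).

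Genes of polycomb complexes, which write and read methylation and ubiquitylation of histones at silent genes, rose in 5 of 28 cases (17.9%, against 5.42% of all genes) and fell in none, with a median of 0.49 relative to all genes. In 12 of them all MFN1-KD libraries lay above all controls, which held for 12% of all genes. *Ezh2*, the methyltransferase of PRC2, was at 148, 98.9 and 75.4 FPKM in control and at 216, 257 and 404 FPKM in MFN1-KD (log2 fold change 1.44, standard error 0.30, adjusted p = 0.0348 from limma), and *Bcor*, of a variant PRC1, at 5.42, 3.35 and 2.43 FPKM against 9.18, 7.63 and 19.8 FPKM (1.42, adjusted p = 0.0771). *Scmh1* and *Epop* rose by 1.73 and 1.22. Among histone demethylases *Kdm2a* rose from 6.14, 6.02 and 4.56 FPKM to 16.9, 17.3 and 40.4 FPKM (1.87, adjusted p = 0.0387), and *Kdm5a*, which removes methyl groups from H3K4, rose by 1.32. The deacetylase *Hdac1* fell from 84.3, 78.9 and 69.8 FPKM to 33.7, 34.0 and 44.9 FPKM (-1.04, adjusted p = 0.0383), and *Smarcb1*, a core subunit of the BAF remodelling complex, by 1.08. Among 14 genes of DNA methylation none rose, but 10 lay above 0 and the median was 0.52 relative to all genes. In 4 of them all MFN1-KD libraries lay above all controls, which held for 12% of all genes, and in 0 below. *Dnmt3l* lay furthest the other way and fell by 1.10, with overlap. That call was lost without MFN1-KD replicate 3, with only the 6 libraries, and with the trends over GC content and length removed.

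For RNA metabolism the list of CCR4-NOT deadenylation and mRNA decay had the most rises in proportion after the MAP kinases, 7 of 38 (18.4%, against 5.42% of all genes), with 2 falls and a median of 0.58 relative to all genes. This machinery shortens poly(A) tails and thereby clears transcripts, which in the early embryo includes those stored in the egg. *Pan3*, of the PAN2-PAN3 deadenylase, was at 108, 73.2 and 73.2 FPKM in control and at 246, 196 and 215 FPKM in MFN1-KD (log2 fold change 1.38, standard error 0.26, adjusted p = 0.0314 from limma). *Cnot6l*, a catalytic subunit of CCR4-NOT, was at 6.31, 3.92 and 2.85 FPKM against 11.4, 14.1 and 20.9 FPKM (1.62, adjusted p = 0.0383), and *Zfp36l2*, which brings the complex to AU-rich mRNAs, at 10.6, 3.82 and 4.73 FPKM against 15, 37.9 and 23.2 FPKM (1.85, adjusted p = 0.0460). *Cnot8*, another catalytic subunit, fell from 154, 154 and 164 FPKM to 72.6, 94.6 and 52.2 FPKM (-1.13, adjusted p = 0.0348). The groups did not overlap in any of these 4 genes, and the count of rises was 7 without MFN1-KD replicate 3 and 6 with the trend over GC content and length removed. These transcripts were long, with a median of 2274 bases.

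**Figure D4:**
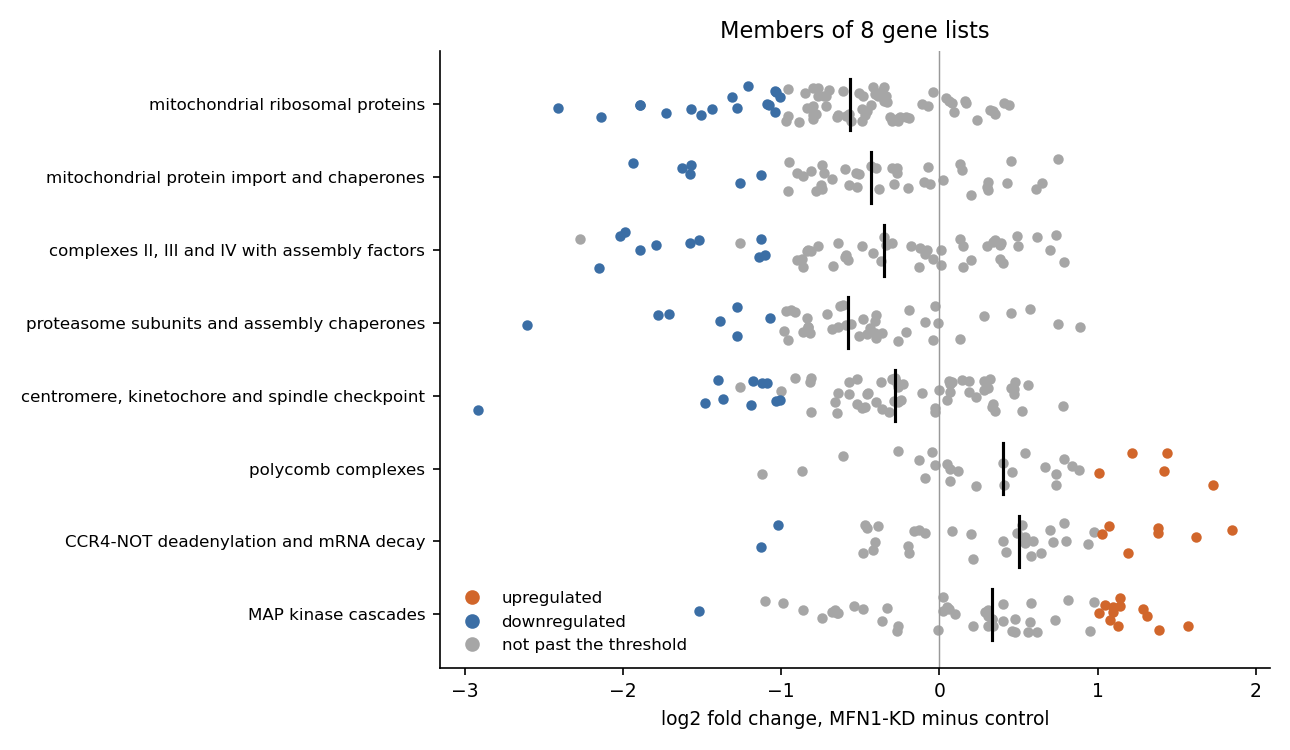
Log2 fold change (MFN1-KD minus control) of every tested member of 8 gene lists. Each point is 1 gene, coloured by whether it was upregulated or downregulated at the study threshold, and the black line is the median of the list; the medians of the 5 upper lists lie below 0 and those of the 3 lower lists above 0, and each list also holds members on the other side.

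Splicing and transcription genes were mixed. Of 62 spliceosome genes and SR proteins 6 rose (9.68%) and 5 fell (8.06%), against 5.42% and 9.49% of all genes. *Srsf2* was at 367, 262 and 193 FPKM in control and at 714, 690 and 811 FPKM in MFN1-KD (log2 fold change 1.47, standard error 0.25, adjusted p = 0.0301 from limma), and *Tra2a* at 70.9, 66.6 and 48.5 FPKM against 145, 179 and 279 FPKM (1.64, adjusted p = 0.0393). *Sf3b5*, of the U2 particle, fell by 1.29. Of 52 genes of RNA polymerase II and Mediator 5 fell (9.62%, near the 9.49% of all genes) and none rose. The list median was -0.13 relative to all genes, and -0.02 with the trends over GC content and length removed. Those that fell included the polymerase subunits *Polr2c* (-1.32, adjusted p = 0.0277) and *Polr2e* (-1.28, adjusted p = 0.0323) and the Mediator subunits *Med22* (-2.03, adjusted p = 0.0277) and *Med4* (-1.35, adjusted p = 0.0301). *Polr2e* was at 415, 465 and 470 FPKM in control and at 213, 243 and 122 FPKM in MFN1-KD. In the RNA polymerase I and III list *Bdp1*, a subunit of TFIIIB, rose by 1.90, and *Crcp* and the repressor *Maf1* fell by 1.17 and 1.64.

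Among cell cycle genes the share that fell was above that of all genes (9.49%) for the kinetochore and under it for DNA replication and the cyclins. Of 67 genes of centromere, kinetochore and spindle checkpoint 10 (14.9%) fell and none rose, with a median of -0.21 relative to all genes, while 6 fell without MFN1-KD replicate 3 and 7 with the trends over GC content and length removed. Besides *Aurkc*, *Mad2l2* was at 243, 302 and 344 FPKM in control and at 133, 143 and 70.7 FPKM in MFN1-KD (log2 fold change -1.40, standard error 0.29, adjusted p = 0.0348 from limma), and the checkpoint protein *Bub3* at 55.6, 63.3 and 64.1 FPKM against 28.7, 35.9 and 20.1 FPKM (-1.12, adjusted p = 0.0435). *Cdk1*, the kinase that drives entry into mitosis, was at 328, 299 and 309 FPKM against 137, 141 and 81.2 FPKM (-1.42, standard error 0.23, adjusted p = 0.0277). *Ccnb2*, one of its cyclins, went from 40.9, 44.6 and 45.1 FPKM to 22.6, 19.8 and 11.7 FPKM (-1.28, adjusted p = 0.0486). Of 45 cyclins, cyclin-dependent kinases and CDC25 phosphatases 3 fell (6.67%) and 2 rose. In DNA replication 4 of 54 fell (7.41%), led by *Rpa2* (-1.16) and *Tipin* (-1.52). The inhibitor *Cdkn1c* rose from 1.49, 0.90 and 2.60 FPKM to 33.4, 8.5 and 3.99 FPKM (2.19, adjusted p = 0.115), and MFN1-KD replicate 1 was by far the highest.

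Genes of cell death did not move together. Of 26 genes of the BCL2 family and caspases 3 fell (11.5%, near the 9.49% of all genes) and 1 rose (3.85%, against 5.42%). *Bax*, which permeabilizes the outer mitochondrial membrane, was at 129, 114 and 99.2 FPKM in control and at 37.9, 43.4 and 3.41 FPKM in MFN1-KD (log2 fold change -2.54, standard error 0.73, adjusted p = 0.0821 from limma), and *Bad*, a BH3-only relative, at 52.7, 51.4 and 64.7 FPKM against 23.1, 21.8 and 9.23 FPKM (-1.68, adjusted p = 0.0323). *Casp6* fell by 1.54. *Apaf1*, the scaffold of the apoptosome, was at 26.1, 14.0 and 12.7 FPKM against 28.4, 47.3 and 61.5 FPKM (1.33, adjusted p = 0.105). Among 27 p53 genes and targets 2 rose (7.41%) and 3 fell (11.1%), shares also near those of all genes, with *Ppm1d* up (1.52) and *Tigar* down (-1.36). In 28 antioxidant genes 1 rose (3.57%), *Gclm* (1.13), and 3 fell (10.7%, near that of all genes), *Hmox2* (-1.09), *Gpx1* (-1.11) and *Prdx3* (-1.68).

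Stage genes of the embryo were compared last. A list of 12 expressed genes was built around the subcortical maternal complex and the cytoplasmic lattice, structures that the egg passes to the embryo. In this list 2 fell (16.7%, against 9.49% of all genes), *Padi6* and *Npm2*. *Npm2*, the egg nucleoplasmin, is a histone chaperone already counted above, so *Padi6* was the only gene of these structures that fell. *Padi6* was at 13.2, 14.7 and 12.8 FPKM in control and at 4.53, 4.54 and 0.33 FPKM in MFN1-KD, without overlap (log2 fold change -2.08, standard error 0.54, adjusted p = 0.0575 from limma). *Tle6* was at 11.7, 2.69 and 3.78 FPKM against 5.33, 5.64 and 0.67 FPKM, with overlap (-0.56, adjusted p = 0.602), and *Ooep* at 1.08, 2.04 and 1.73 FPKM against 1.44, 1.21 and 0.03 FPKM, with overlap (-0.55, adjusted p = 0.477). The median of the 12 was -0.44 relative to all genes and -0.12 without MFN1-KD replicate 3, where only *Padi6* fell. Among 31 other transcripts stored in the egg 3 fell (9.68%, near the 9.49% of all genes) and 1 rose (3.23%, against 5.42%). The rise was in the germ cell RNA-binding protein *Dazl*, at 4.07, 0.98 and 0.99 FPKM in control and 7.28, 24.2 and 13 FPKM in MFN1-KD (2.40, adjusted p = 0.0348).

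Of 30 genes known from genome activation at the 2-cell stage 3 rose (10.0%, against 5.42% of all genes) and 1 fell (3.33%, against 9.49%). Their median was 0.13 relative to all genes, and 0.05 with the trends over GC content and length removed. *Zfp352* was at 0.44, 1.33 and 1.73 FPKM in control and at 6.42, 11.4 and 7.16 FPKM in MFN1-KD (log2 fold change 2.12, standard error 0.72, adjusted p = 0.115 from limma), and *Gm8300* at 1.65, 2.60 and 1.17 FPKM against 17.2, 22.0 and 13.8 FPKM (2.74, adjusted p = 0.118). Both were above all controls in every MFN1-KD library. The homeobox gene *Obox6* fell from 1078, 1101 and 1305 FPKM to 970, 617 and 175 FPKM (-1.29, adjusted p = 0.153). *Zscan4d* was at 1.02 to 1.30 FPKM in control and 1.26 to 2.27 FPKM in MFN1-KD (0.26), and *Eif1a* at 158 to 169 FPKM against 135 to 223 FPKM (0.07), both with overlap.

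Pluripotency factors had 1 rise and 1 fall in 25 genes (4.0% each, against 5.42% and 9.49% of all genes), *Klf2* (log2 fold change 1.07) and *Zfp42* (-1.02). *Pou5f1* was at 7.73, 8.90 and 5.10 FPKM in control and at 3.68, 2.74 and 0.30 FPKM in MFN1-KD, without overlap, but did not pass the threshold (-1.51, standard error 0.68, limma adjusted p = 0.207). Of 20 trophectoderm and morula genes 3 fell and none rose. The keratin *Krt18* was at 10.8, 6.51 and 8.26 FPKM in control and at 3.07, 0.90 and 0.12 FPKM in MFN1-KD (-2.19, adjusted p = 0.0542), and the tight junction protein *Cldn6* at 18.0, 11.9 and 12.8 FPKM against 2.17, 6.99 and 0 FPKM (-2.35, adjusted p = 0.0874). *Tfap2c*, a transcription factor of the trophectoderm lineage, lay the other way, at 30.9, 22.5 and 16.5 FPKM against 35, 39.3 and 50.9 FPKM (0.84, adjusted p = 0.105).

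Of 41 genes of compaction, adhesion and polarity 3 rose (7.32%) and 5 fell (12.2%), against 5.42% and 9.49% of all genes. In this list 24 genes lay above 0 and the median was 0.33 relative to all genes. Without MFN1-KD replicate 3, 3 fell, and with the trends over GC content and length removed 2 rose and 1 fell. The rises were *Ctnnb1*, given above, *Pkp2*, a plaque protein of desmosomes, at 1.24, 0.06 and 0.29 FPKM in control and 2.5, 2.13 and 2.43 FPKM in MFN1-KD (log2 fold change 1.21, adjusted p = 0.105 from limma), and *Dlg1*, a scaffold of the Scribble polarity group, at 43.0, 60.1 and 46.8 FPKM against 102, 55.0 and 301 FPKM (1.25, adjusted p = 0.199). The groups of *Dlg1* overlapped and those of *Pkp2* did not. *Crb3*, of the apical Crumbs complex, was at 130, 132 and 129 FPKM in control and at 80.8, 51.3 and 41.9 FPKM in MFN1-KD (log2 fold change -1.21, standard error 0.25, adjusted p = 0.0359 from limma), and its partner *Patj* at 8.18, 3.89 and 6.67 FPKM against 0.82, 2.80 and 0.04 FPKM (-1.86, adjusted p = 0.0581). *Myl12b*, a regulatory light chain of the myosin that contracts the cortex, fell by 1.70. *Cdh1*, the cadherin of compaction, was at 19.9, 11.9 and 9.18 FPKM against 18.1, 23.1 and 16.2 FPKM, with overlap.

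The direction of change also followed the length and the base composition of the transcripts. With the genes divided into 4 groups of about equal number, among those with the longest transcripts (1949 to 16716 bases) 8.43% rose and 3.16% fell, with a median log2 fold change of 0.21, and among those with the shortest (66 to 678 bases) 3.68% rose and 10.7% fell, with a median of -0.22. Among genes with the lowest GC content (17.1% to 45%) 9.19% rose and 3.66% fell (median 0.18), and among those with the highest (53.9% to 75%) 3.50% rose and 15.4% fell (median -0.31). Without MFN1-KD replicate 3 the groups with the longest and shortest transcripts had medians of 0.25 and -0.07. With each library's trend over both removed, 605 genes rose and 981 fell, and 449 of the 662 rises and 825 of the 1160 falls were kept. The part of this trend in each gene group was not tested beyond the values without it, which left the medians of the proteasome (-0.45), mitochondrial ribosomal (-0.32), polycomb (0.40) and CCR4-NOT (0.33) lists on the same side of 0.

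**Figure D5:**
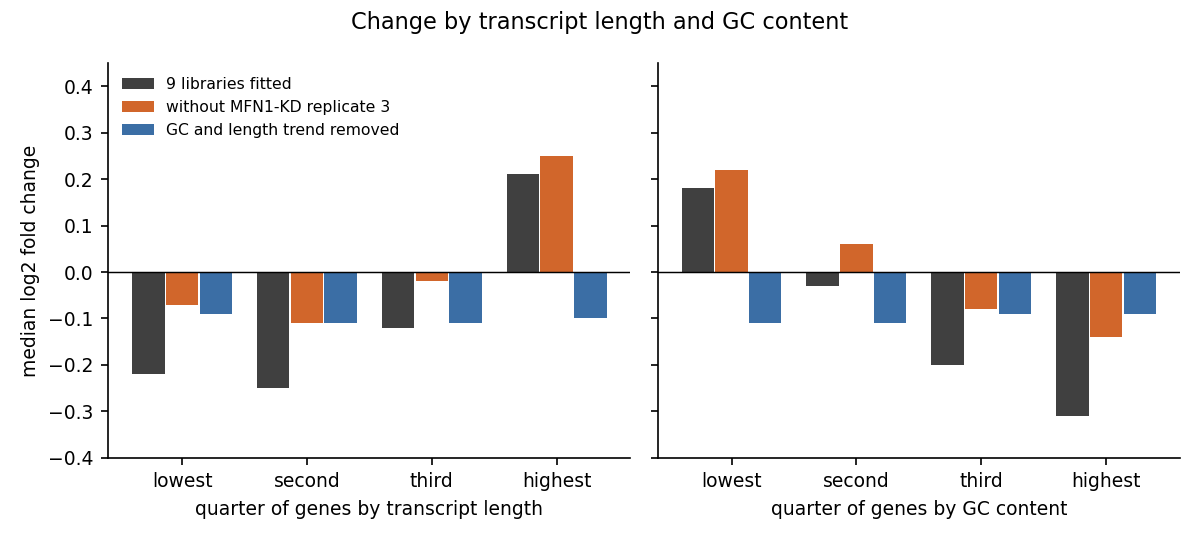
Median log2 fold change (MFN1-KD minus control) of genes divided into 4 groups by transcript length (left) and by GC content (right), for 12007 genes with both values. Bars give the fit over 9 libraries, the fit without MFN1-KD replicate 3 and the fit after removal of the trends over GC content and length; the group with the longest transcripts is at 0.21 and the shortest at -0.22 in the first, and at -0.10 and -0.09 in the last.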

How the data were processed

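The authors amplified poly(A) RNA of pooled 8-cell embryos by the Smart-Seq2 method, trimmed the reads with cutadapt (v1.16), aligned these with STAR to mm10 and deposited 1 table of FPKM values per library. The program that made the FPKM values and its annotation are not given in the sources used here. Read counts were not used, so that depth is known only as the relative value of 1 fragment, estimated from low values of short genes, and the counting error is unknown, and a value listed at 0 may be a gene that was not detected. FPKM corrects for length but not for the composition of a library.

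Groups were taken from the sample titles. Of 55335 entries per library, 216 rows whose symbol is repeated were kept as separate entries, and 53424 matched a gene of GENCODE M21 (GRCm38), which gave coordinates, class, length and GC content. Genes that averaged 1 FPKM or more in the 6 libraries compared were transformed to log2(FPKM + 1), a scale that understates the change of low genes. A limma model (v3.58.1, R 4.3.3, robust empirical Bayes with an intensity trend) included all 9 libraries, 3 per group, and MFN1-KD was compared with control. The threshold of the study (more than 2-fold, unadjusted p under 0.05) and Benjamini-Hochberg adjusted p under 0.05 over all 12218 genes were both used. The count test of the study was not run, since the files hold no counts. Single values per library were compared by a two-sided exact permutation test (scipy 1.17.1). The fit was tested on simulated data.

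Alternatives were other scalings, filters and pseudocounts, the 6 libraries alone, the replicate number as a block, library weights, each library left out, and removal of trends over GC content and length within every library. Gene lists were described by counts and medians, with no set test. The members and lists were chosen with earlier results of these data known. The genes named were *Mfn1* and those the study names, the 12 largest rises and falls among protein-coding genes (adjusted p under 0.05, mean of at least 10 FPKM, groups apart), up to 4 called members per list with the smallest p and the member furthest against the list, and members of lists with 15 or fewer tested genes. *Fis1*, *Opa1*, *Cdh1*, *Pkp2* and *Dlg1*, and the 3 genes called with 6 libraries, were added after their values were seen. A few genes that this rule names are not reported here.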

Additional observations from a re-analysis of the deposited data

How the results depend on the processing

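The counts at the study threshold moved by more than 1.5 times with a filter at a mean of 10 FPKM (335 up and 585 down among 5385 genes). Over the libraries left out in turn they ranged from 437 to 911 up and from 719 to 1780 down, lowest without control replicate 3 and without MFN1-KD replicate 3. The adjusted calls (154 higher, 298 lower) depended far more on the fit. They were 249 higher with upper-quartile scaling, 245 higher with the filter at 10 FPKM, 93 higher and 193 lower with a pseudocount of 0.1, 78 higher and 165 lower with the trend over GC content and length removed, and 525 higher and 755 lower with library weights. With only the 6 libraries 1 was higher and 2 were lower (2610 genes had an unadjusted p under 0.05), and with no filter 0 were higher and 2 lower (4004 genes). Leaving out each library gave 0 to 167 higher and 0 to 561 lower. The cause was not tested.

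*Mfn1* was lower under every alternative, but its adjusted p was above 0.05 in 11 of 18. Its log2 fold change was -2.66 with no filter (adjusted p = 0.116 from limma), -3.00 with a pseudocount of 0.1 (0.0539), -2.66 with only the 6 libraries (0.0812) and -2.67 with the trend over GC content and length removed (0.0503). It was smallest with library weights, at -1.87 (0.0249), and it ranged from -3.20 to -2.05 over the libraries left out.

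With the replicate number as a block 667 genes were upregulated, 1222 downregulated, 87 higher and 250 lower. Deviations of libraries with the same number correlated at 0.03, 0.16 and 0.01, so the numbers were not taken to pair the samples.

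Of 148 called genes named in the text, 31 missed the threshold without MFN1-KD replicate 3, 24 with the trend over GC content and length removed, 21 with library weights and 17 or fewer under each other alternative. None changed sign. Those lost without MFN1-KD replicate 3 include *Tomm40*, *Timm44*, *Micos13*, *Psmc5*, *Polr2e*, *Bub3*, *Cnot8*, *Spry2*, *Rpl13*, *Npm2* and *Obox6*. Of 51 lists with at least 12 genes, 36 had a median on the same side of all genes in all 18 alternatives, among them the proteasome (-0.55 to -0.39), mitochondrial ribosomal (-0.58 to -0.32), MAP kinase (0.33 to 0.68), polycomb (0.37 to 0.58) and CCR4-NOT (0.33 to 0.70) lists. The medians of mitochondrially encoded mRNAs (-0.26 to 0.22) and cytoplasmic ribosomal proteins (-0.22 to 0.15) did not keep their side.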
